A study of Mus musculus with 9 samples.

Results

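The genes described here encode the core kinases of the Hippo pathway, their scaffold and adaptor proteins, and 3 proteins that hold back the transcriptional coactivator YAP. They are Lats1, Lats2, Stk3, Stk4, Sav1, Mob1a, Mob1b, Amotl1, Amotl2 and Vgll4, which were taken by gene symbol. All 10 were found among the 22972 gene names of the deposited tables, and all 10 reached the mean of 1 FPKM over all libraries that was set as the minimum for testing, as did 10109 genes in all. FPKM is the number of fragments counted on a gene, divided by the gene's length and by the sequenced fragments of the library, so that levels of different genes can be set side by side. RNA was sequenced from B16 cells, a mouse melanoma line of wild-type genotype per the labels, grown on flexible PDMS film and harvested on day 3. Each group had 3 libraries: unstrained cells (CTL), cells under cyclic strain from deformation of the film over 72 h (MS), and cells that received 100 ng/mL of blebbistatin, an inhibitor of myosin II, over 72 h (Blebb.). Whether Blebb. cells were also strained cannot be read from the labels, which name only the drug. The paper's heat map names strain and drug together, and its methods describe straining after the inhibitors were added. Blebb. was therefore compared with both MS and CTL. If Blebb. cells were strained, Blebb. against CTL differs in strain and drug together, and if they were not, Blebb. against MS does. The labels number the libraries of each group as parallel experiments, and nothing says whether these were separate passages of the line, so the p-values measure the spread between these libraries.

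In the Hippo pathway, the kinases MST2 (gene Stk3) and MST1 (gene Stk4), bound to the scaffold SAV1, phosphorylate the kinases LATS1 and LATS2 and their adaptors MOB1A and MOB1B. Active LATS kinases phosphorylate YAP and its relative TAZ, which are then retained in the cytoplasm or degraded. AMOTL1 and AMOTL2 of the angiomotin family bind YAP directly and link it to junctions and actin filaments, and VGLL4 competes with YAP for the TEAD transcription factors in the nucleus. Spread cells with many stress fibres usually keep YAP in the nucleus, and inhibition of myosin usually moves it out. This control acts mainly on proteins, by phosphorylation and binding, and RNA sequencing measures only the supply of transcripts. Lats2 and Amotl2 are also known as transcriptional targets of YAP, which closes a negative feedback loop.

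Libraries of one group were not more alike (Pearson's r across genes between 0.939 and 0.991) than libraries of different groups (0.920 to 0.995), and CTL replicate 1 and Blebb. replicate 2 stood apart from the rest, with scores of -42.1 and -43.9 on the first principal component against -10.0 to 35.8 in the others. FPKM also deviated with the GC content of genes, and Pearson's r between a library's deviations from the gene means and GC content, taken across 9663 genes, ran from -0.64 in MS replicate 1 to 0.55 in Blebb. replicate 1. Melanocytic markers were abundant in every library (all 7 of Mlana, Pmel, Tyr, Tyrp1, Dct, Mitf and Sox10, with a summed level between 7444 and 12933 FPKM), while none of 5 fibroblast and 4 keratinocyte markers reached 1 FPKM in any library. Of 5 macrophage markers, Ptprc was listed at 0 in all libraries, and only Cd68 and Lyz2, which are not restricted to macrophages, reached 1 FPKM in any library (summed level of the list at most 4.32 FPKM). The depth of the libraries is unknown, since no counts were used here.

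The deposited transcript levels of the pathway's components were uneven within each protein family. Ordered by the mean over the 9 libraries, Vgll4 stood at 24.6 FPKM, Mob1a at 22.0, Amotl1 at 17.3, Sav1 at 14.4, Stk4 at 13.4, Amotl2 at 9.92, Lats2 at 6.02, Lats1 at 2.93, Stk3 at 2.63 and Mob1b at 1.72 FPKM. Vgll4 lay above 72.1% of all genes tested and Mob1b above 8.22%. The ranges over libraries overlapped for every pair of neighbours in this order. Within single libraries, Amotl2 was higher than Lats2 and Lats2 higher than Lats1 in 9 of 9 libraries, whereas Vgll4 exceeded Mob1a, Mob1a exceeded Amotl1 and Lats1 exceeded Stk3 in only 6 of 9. The order at the top and at the bottom was therefore not separated from the spread between libraries. How far GC content shaped the levels of different genes was not tested.

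**Figure D1:**
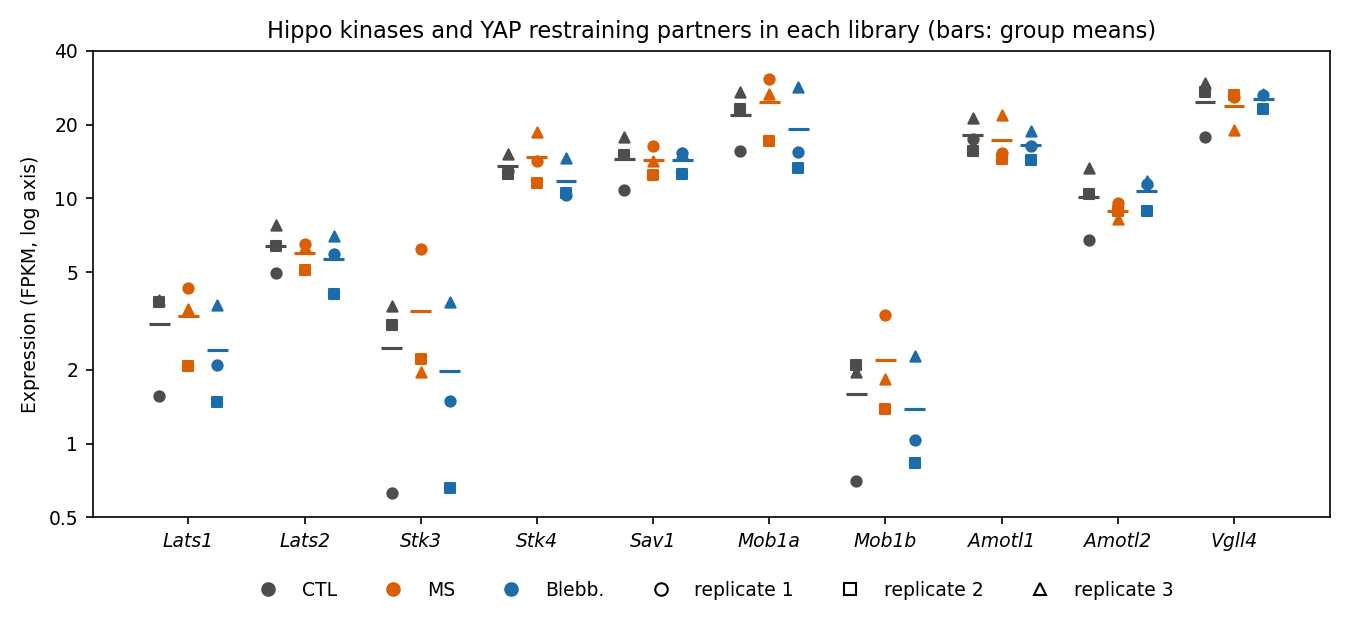
Expression of the 10 genes in FPKM on a log axis, with 1 point for each of the 9 libraries (color: group, symbol: replicate number) and a bar at each group mean. Vgll4 and Mob1a lie highest and Mob1b, Stk3 and Lats1 lowest, and the 3 groups overlap for every gene.

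Stk3, the gene of the kinase MST2, lies at chr15:34875496-35178921 on the minus strand of GRCm38. It was listed at 0.630, 3.05 and 3.65 FPKM in CTL, at 6.20, 2.22 and 1.97 FPKM in MS and at 1.49, 0.658 and 3.77 FPKM in Blebb. (replicates 1, 2 and 3 in each group, as for all genes below). The highest library was 9.84 times the lowest, the widest range of the 10 genes, and both extremes carried replicate number 1, in MS and in CTL. All 3 groups overlapped. Stk4, the gene of the kinase MST1 (chr2:164070322-164155524, plus strand), was steadier, at 12.9, 12.6 and 15.1 FPKM in CTL, 14.2, 11.6 and 18.6 FPKM in MS and 10.3, 10.5 and 14.6 FPKM in Blebb. A pair of Blebb. libraries lay below every other library, while Blebb. replicate 3 lay among the MS libraries. Stk4 overlaps Tomm34 on the opposite strand in the GENCODE M21 annotation, and whether the authors' counting used strand is not stated in the sources used here.

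Sav1, the scaffold that joins MST to LATS kinases (chr12:69965012-69987002, minus strand), was expressed at 10.8, 15.0 and 17.7 FPKM in CTL, 16.3, 12.4 and 14.3 FPKM in MS and 15.3, 12.5 and 15.3 FPKM in Blebb. The CTL libraries held both its lowest and its highest value, so the other groups lay inside the CTL range. It overlaps Atl1 on the opposite strand. Mob1a (chr6:83326016-83343776, plus strand) encodes the more abundant of the MOB1 adaptors and was at 15.6, 23.2 and 27.1 FPKM in CTL, 30.6, 17.1 and 26.7 FPKM in MS and 15.4, 13.3 and 28.6 FPKM in Blebb. Each group held a library at or below 17.1 FPKM and one at or above 27.1 FPKM. Mob1b (chr5:88720855-88764220, plus strand) was near the lower limit of the test, at 0.704, 2.09 and 1.97 FPKM in CTL, 3.35, 1.38 and 1.84 FPKM in MS and 1.04, 0.833 and 2.27 FPKM in Blebb. It was highest in MS replicate 1 and lowest in CTL replicate 1, as Stk3 was.

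Lats1 (chr10:7681214-7716460, plus strand) encodes the first of the kinases that phosphorylate YAP. Its values were 1.56, 3.78 and 3.84 FPKM in CTL, 4.31, 2.07 and 3.54 FPKM in MS and 2.09, 1.47 and 3.66 FPKM in Blebb. Lats2 (chr14:57689662-57758388, minus strand) was at 4.95, 6.42 and 7.80 FPKM in CTL, 6.53, 5.11 and 6.35 FPKM in MS and 5.93, 4.06 and 7.05 FPKM in Blebb. Both were lowest in Blebb. replicate 2, and in neither gene did any group lie apart from another. The Lats2 interval also holds Gm49361, a protein-coding gene annotated on the same strand, and reads of these overlapping genes may have been divided by the counting.

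Amotl1 (chr9:14541966-14645056, minus strand) was expressed at 17.4, 15.7 and 21.3 FPKM in CTL, 15.3, 14.5 and 21.9 FPKM in MS and 16.3, 14.3 and 18.9 FPKM in Blebb. Replicate 3 was the highest of its group in all 3 groups. The labels do not say that the numbers mark a shared day or batch. Amotl2 (chr9:102716672-102733418, plus strand) was at 6.77, 10.4 and 13.2 FPKM in CTL, 9.59, 8.85 and 8.28 FPKM in MS and 11.4, 8.86 and 11.8 FPKM in Blebb. Its MS libraries were the closest to each other (SD 0.661 FPKM, against 3.24 in CTL and 1.60 in Blebb.) and lay within the CTL range. The lowest Blebb. library lay just above MS replicate 2, so that MS and Blebb. overlapped as well.

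Vgll4, the TEAD-binding competitor of YAP (chr6:114860628-114969994, minus strand), was at 17.8, 27.0 and 29.5 FPKM in CTL, 25.8, 26.3 and 19.0 FPKM in MS and 26.5, 23.1 and 26.6 FPKM in Blebb. It was low in CTL replicate 1 and MS replicate 3 and between 23.1 and 29.5 FPKM elsewhere. Vgll4 moved across the libraries most like Amotl2 among the 10 genes (r = 0.88 over the 9 libraries) and also with Sav1 (r = 0.71). The 250 bases before the RefSeq start of Sav1 and of Vgll4 (GRCm38.p6) are shown because both contain the core of the sequence that TEAD factors bind, GGAATG or its reverse complement CATTCC, which is in capitals. The Sav1 sequence is chr12:69987003-69987252 and the Vgll4 sequence chr6:114969204-114969453, both read 5′ to 3′ on the minus strand. The Vgll4 sequence lies within the annotated interval of the gene, whose GENCODE end is farther upstream, and that of Sav1 lies just outside its gene.
Sav1: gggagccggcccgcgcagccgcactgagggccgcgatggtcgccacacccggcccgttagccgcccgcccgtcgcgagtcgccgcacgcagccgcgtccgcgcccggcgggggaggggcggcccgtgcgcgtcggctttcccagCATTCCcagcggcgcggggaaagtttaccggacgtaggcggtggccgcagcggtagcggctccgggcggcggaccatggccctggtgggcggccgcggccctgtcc
Vgll4: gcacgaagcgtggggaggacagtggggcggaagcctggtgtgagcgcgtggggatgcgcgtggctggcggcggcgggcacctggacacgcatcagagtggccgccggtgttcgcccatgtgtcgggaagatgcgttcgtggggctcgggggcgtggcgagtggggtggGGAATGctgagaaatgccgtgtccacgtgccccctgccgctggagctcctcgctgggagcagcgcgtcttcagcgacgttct
Counted from the start, the match begins at -106 in Sav1 and at -82 in Vgll4. Windows of 300 bases (250 before and 50 after a start) were present for 9 of the 10 genes. Of their 10 windows, 5 held the motif on either strand (1 each of Sav1, Vgll4, Mob1a, Amotl2 and Lats2), as did 14.7% of all 32851 windows. The match in Lats2 begins at 4, after the start. Stk3 had no entry. A match describes the letters of the window and does not show that a factor binds there.

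Cyclic straining was compared with the unstrained state to ask whether the supply of these transcripts differs when cells are strained. None of the 10 genes passed the test in MS against CTL. Of all genes tested, 0.0% had an adjusted p under 0.05 (limma with Benjamini-Hochberg adjustment), 0.158% had an unadjusted p under 0.05 and 3.17% had groups that did not overlap, and the count of the 10 genes was 0 on each of these measures. Fitted log2 fold changes, on the scale of log2(FPKM + 1), lay between -0.13 (Amotl2) and 0.39 (Stk3), with 6 above and 4 below 0, and all 10 were smaller than their standard errors of 0.19 to 0.53. Their median was 0.051, and it was -0.0018 for all genes tested. The split rested on single libraries, with 10 above and 0 below 0 without CTL replicate 3 (median 0.17) and 2 above and 8 below 0 without CTL replicate 1 (median -0.14). In these bulk samples, fewer cells with a transcript and less transcript per cell cannot be told apart. The scale understates the change of genes near 0, such as Mob1b and Stk3.

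The largest positive differences belonged to Stk3 and Mob1b, the genes with the lowest mean levels. Mean Stk3 was 2.44 ± 1.60 FPKM (SD, n = 3) without strain and 3.46 ± 2.37 FPKM with it, and the fitted difference was 0.39 (standard error 0.53, adjusted p = 1.00, limma). Mean Mob1b was 1.59 ± 0.766 FPKM (SD, n = 3) without strain and 2.19 ± 1.03 FPKM with it, and the fitted difference was 0.30 (standard error 0.33, adjusted p = 1.00, limma). Without CTL replicate 1 these values were -0.083 and 0.027. Lats1 was at 0.11 and Mob1a at 0.16 on the same scale, and Stk4 at 0.10. Lats2 was at -0.066, Amotl1 at -0.082, Vgll4 at -0.044 and Sav1 at 0.0027. The intervals were narrower for the steadier genes. On the scale of FPKM + 1, the 95% confidence interval of the Sav1 difference ran from a 0.743-fold to a 1.35-fold level and that of Amotl1 from 0.701-fold to 1.27-fold, while the interval of Stk3 reached from 0.573-fold to 2.99-fold.

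Blebbistatin was set against straining to ask whether blocking myosin changes the same transcripts. In Blebb. against MS, 0 of the 10 genes passed the threshold (0.0% of all genes tested), 0 had an unadjusted p under 0.05 (1.25% of all genes) and 0 had groups that did not overlap (3.73% of all genes). A total of 7 genes were lower and 3 were higher in Blebb., with log2 fold changes between -0.60 (Stk3) and 0.23 (Amotl2) and a median of -0.19 (-0.0059 for all genes tested). Without Blebb. replicate 2 the split was 5 lower and 5 higher, with a median of -0.049. Of the 3 kinase and adaptor genes with the largest differences, Stk3 had 1.97 ± 1.61 FPKM (SD, n = 3) in Blebb., Mob1b 1.38 ± 0.780 FPKM and Mob1a 19.1 ± 8.27 FPKM. The fitted difference from MS was -0.60 for Stk3 (standard error 0.53), -0.42 for Mob1b (standard error 0.33) and -0.40 for Mob1a (standard error 0.32). Lats1 was at -0.35 (standard error 0.34) and Stk4 at -0.29 (standard error 0.20). The adjusted p was 0.897 for each of these 5 genes (limma). Their differences with the GC trend of the libraries removed are given below. Mob1a was at -0.71 without Blebb. replicate 3, with an unadjusted p of 0.0389 and an adjusted p of 0.450 (limma), the only value of the 10 genes under an unadjusted 0.05 in any alternative run. In that run 934 of 10109 genes tested were under it as well. With other single libraries left out the differences came nearer to 0, to -0.19 for Mob1a, -0.19 for Stk3, -0.17 for Mob1b and -0.14 for Lats1, while the values farthest from 0 were -1.01 for Stk3, -0.67 for Mob1b and -0.60 for Lats1. Amotl2, the feedback target, was the gene with the largest positive difference, at 10.7 ± 1.60 FPKM (SD, n = 3) in Blebb. and 8.91 ± 0.661 FPKM in MS (standard error 0.22, adjusted p = 0.897, limma). Lats2, the other feedback target, had a log2 fold change of -0.087, with a 95% confidence interval from a 0.671-fold to a 1.32-fold level of FPKM + 1. Sav1 was at 0.0067, Amotl1 at -0.044 and Vgll4 at 0.11.

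In Blebb. against CTL, the count was again 0 of 10 for an adjusted p under 0.05 (0.0% of all genes tested, limma), for an unadjusted p under 0.05 (0.089%) and for groups that did not overlap (2.08%). Log2 fold changes lay between -0.25 (Lats1) and 0.10 (Amotl2), with 7 below and 3 above 0, and all 10 were smaller than their standard errors. The median was -0.14 for these genes and -0.013 for all genes tested. Without CTL replicate 1, 10 genes were below 0 (median -0.26), and without Blebb. replicate 2, 4 were below and 6 above 0 (median 0.040). Both comparisons with Blebb. use the same Blebb. libraries, and the 3 comparisons are not independent.

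**Figure D2:**
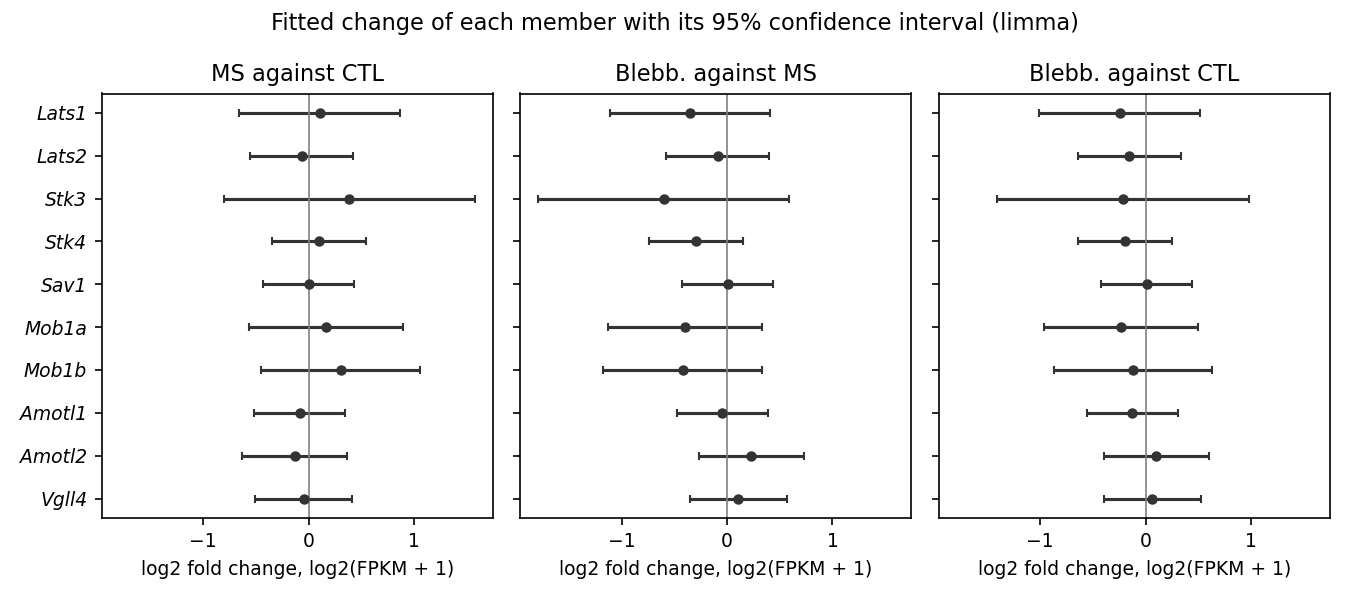
Log2 fold change of each gene on the scale of log2(FPKM + 1) in the 3 comparisons, with the 95% confidence interval from the limma fit as a bar. Every interval includes 0, and the intervals of Stk3 are the widest.

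The members of each paralog pair kept their order in all libraries, whatever the treatment. Transcripts of Lats2 exceeded those of Lats1 in 9 of 9 libraries, by 1.52 to 3.16 times (median 2.03), and Stk4 exceeded Stk3 by 2.29 to 20.5 times (median 5.22). Mob1a exceeded Mob1b by 9.15 to 22.2 times (median 13.8) and Amotl1 exceeded Amotl2 by 1.43 to 2.65 times (median 1.61). No run of 50 bases was shared between the longest transcript of the first gene of a pair and any transcript of the other. Stk4, Lats2, Mob1a and Amotl1 were the more abundant transcripts of their pairs by FPKM. The genes of each pair differ in GC content, as given below, and its effect on these ratios was not tested. No difference of a ratio between groups passed the test (12 comparisons, two-sided exact permutation p between 0.2 and 1, where 3 libraries against 3 allow no p under 0.1, with 1 FPKM added to each value before the log2 ratio was taken). The largest difference was that of the log2 ratio of Stk3 to Stk4 in Blebb. against MS, at -0.31, with means of -2.23 in Blebb. and -1.92 in MS and an exact permutation p of 0.6. This value was 0.12 without MS replicate 1. The ratio of Amotl1 to Amotl2 was 2.57 in CTL replicate 1 and 2.65 in MS replicate 3 and between 1.43 and 1.64 in the other 7 libraries.

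**Figure D3:**
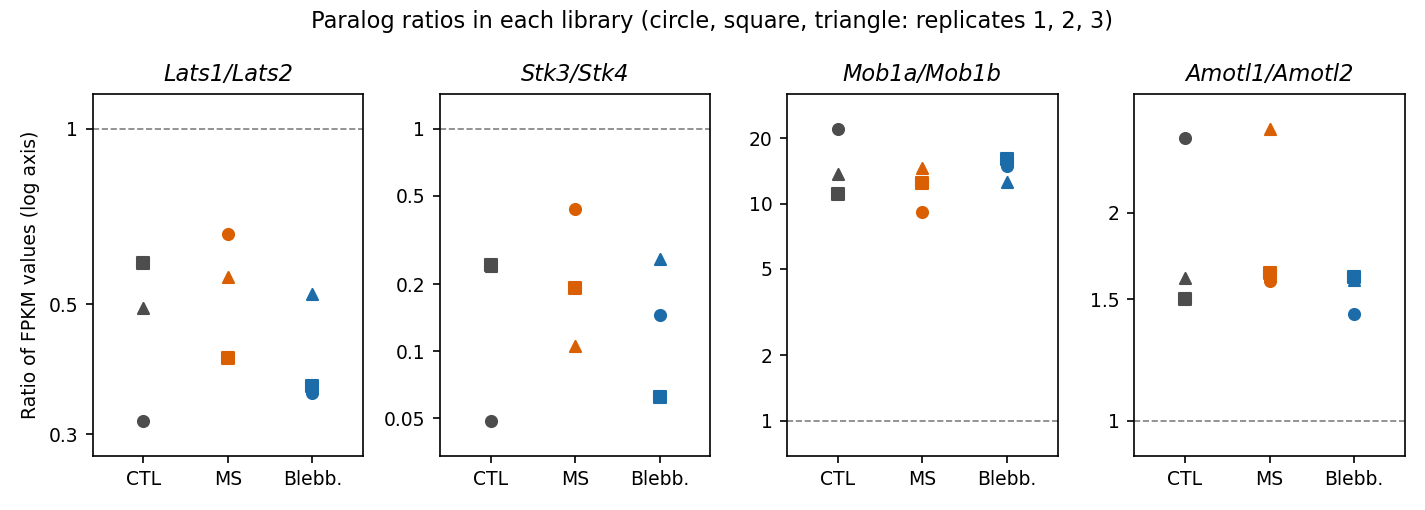
Ratio of the FPKM values of 4 paralog pairs in each library, on log axes, with 1 point for each library by group and a dashed line at 1. Lats1/Lats2 and Stk3/Stk4 lie below 1 and Mob1a/Mob1b and Amotl1/Amotl2 above 1 in all 9 libraries, and the groups overlap.

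Most of the variation of the 10 genes lay within groups. Group accounted for 0.0405% (Sav1) to 26.2% (Stk4) of the variance of a gene over the 9 libraries, with a median of 13.3%, and the median over all genes tested was 12.7%. The share was not corrected for the number of groups, and an arbitrary grouping of the libraries also gives some, so it does not measure an effect of treatment. The SD within groups on the log2 scale ran from 0.24 (Sav1) to 0.77 (Stk3), with a median of 0.28 for the 10 genes and 0.25 for all genes tested. Of the 10 genes, 5 had their lowest value in CTL replicate 1, 4 in Blebb. replicate 2 and 1 in Blebb. replicate 1. The highest value lay in CTL replicate 3 for 4 genes, in MS replicate 1 for 4 and in MS replicate 3 for 2. All 10 genes lay below their own mean in Blebb. replicate 2 and none did in CTL replicate 3 or Blebb. replicate 3. The same counts were not made for all genes tested. CTL replicate 1 and Blebb. replicate 2 stood apart over all genes tested, so these counts need not be particular to the 10 genes. The median deviation of the 10 genes from their means was -0.42 on the log2 scale in CTL replicate 1 and -0.38 in Blebb. replicate 2, and 0.32 in CTL replicate 3.

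These deviations followed the GC trend of the libraries described above for part of the genes. Levels were higher in libraries where GC-rich genes were low, and r between a gene's level and the GC correlation of the library was below 0 for all 10 genes. It passed the threshold for 5 of them after adjustment over the 10 relations, by Pearson's r and by Spearman's rho. The relation was computed for these 10 genes only, so the share of all genes tested that would pass is not known. The GC correlation of a library was itself taken across 9663 genes, the 10 genes among them, so these counts need not be particular to the 10 genes. It was computed from the same values, so genes of low GC content tend to run against it by construction. The p-values below are therefore a description and not a separate test. For Mob1a, r was -0.96 (exact permutation p = 2.2e-05, adjusted 0.00022) and rho was -0.97 (exact permutation p = 0.000165, adjusted 0.00165). For Stk3, r was -0.93 and rho was -0.92 (exact permutation p = 0.000198 and 0.00131, adjusted 0.000661 and 0.00437). Mob1b was at r = -0.95 and rho = -0.92 (exact permutation p = 0.000116 and 0.00131, adjusted 0.000579 and 0.00437), Lats1 at r = -0.93 and rho = -0.85 (exact permutation p = 0.000659 and 0.00607, adjusted 0.00165 and 0.0152) and Lats2 at r = -0.80 and rho = -0.83 (exact permutation p = 0.0102 and 0.00827, adjusted 0.0204 and 0.0165). Without Blebb. replicates 1 and 2, the libraries farthest from the median, r was between -0.84 and -0.96 for these 5 genes. For Stk4 (r = -0.68, rho = -0.70, exact permutation p = 0.0436 and 0.0433, adjusted 0.0623 and 0.0721) r was -0.37 without these libraries. For Sav1, r was -0.68 and rho -0.65 (exact permutation p = 0.0436 and 0.0666, adjusted 0.0623 and 0.0951), and r was -0.92 without them. The relation was weaker for Amotl1 (r = -0.38, rho = -0.27, exact permutation p = 0.313 and 0.493, the same after adjustment), Amotl2 (r = -0.45, rho = -0.38, exact permutation p = 0.223 and 0.312, adjusted 0.278 and 0.347) and Vgll4 (r = -0.42, rho = -0.38, exact permutation p = 0.272 and 0.312, adjusted 0.302 and 0.347), with values of -0.15, -0.77 and -0.66 without Blebb. replicates 1 and 2.

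The GC content of the longest transcript was 37.9% for Mob1b, 38.4% for Stk3, 43.0% for Lats1 and 43.4% for Mob1a, with Sav1 between Stk3 and Lats1, and it was 46.8% for Stk4, 51.4% for Amotl1, 52.2% for Lats2, 56.1% for Vgll4 and 56.7% for Amotl2. Once this trend had been taken out of every library, the SD within groups on the log2 scale went from 0.77 to 0.34 in Stk3 and from 0.46 to 0.091 in Mob1b. The SD went from 0.47 to 0.20 in Lats1 and from 0.46 to 0.21 in Mob1a. It was smaller in 7 of the 10 genes and larger in Lats2, Amotl2 and Vgll4. The log2 fold changes then lay between -0.21 (Sav1) and 0.14 (Stk3) in MS against CTL and between -0.22 (Stk3) and 0.35 (Sav1) in Blebb. against MS, and none passed the test. Like Stk3, Stk4 (-0.16), Mob1a (-0.14), Lats1 (-0.085) and Mob1b (-0.031) had smaller differences in Blebb. against MS than as deposited. Those of Lats2 (-0.14), Amotl1 (-0.076) and Sav1 were larger in size than as deposited. On this scale 5 genes were higher and 5 lower in MS than in CTL, 2 were higher and 8 lower in Blebb. than in MS, and 4 were higher and 6 lower in Blebb. than in CTL. Sav1, whose groups had nearly the same mean as deposited, was the gene with the largest difference on this scale in Blebb. against MS (standard error 0.17, unadjusted p = 0.0711, adjusted p = 1.00, limma). The GC trend is not a condition of the study, and what gave rise to it was not tested.

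**Figure D4:**
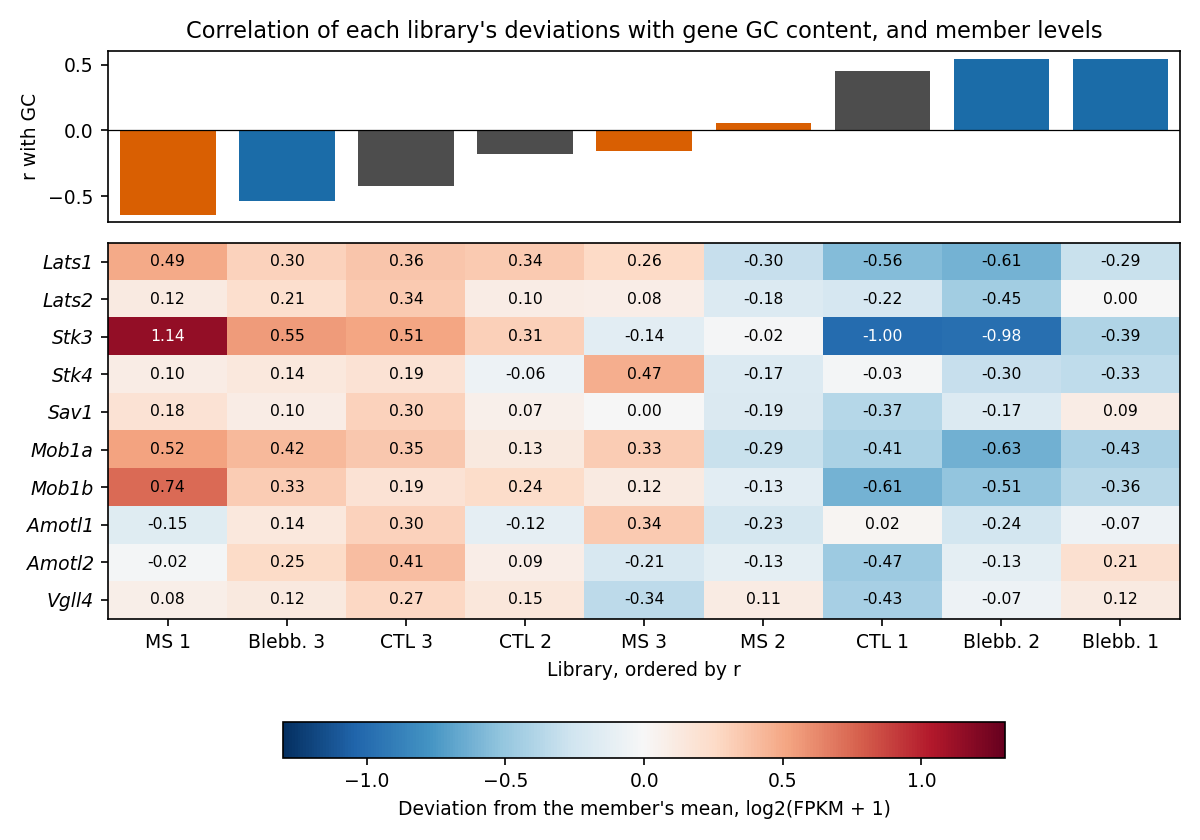
The bars give Pearson's r between each library's deviations and gene GC content (color: group, gray CTL, orange MS, blue Blebb.), and the map gives each gene's deviation from its own mean over the 9 libraries on the log2(FPKM + 1) scale, with libraries in order of r. Stk3, Mob1b, Mob1a and Lats1 pass from above to below their means along the order. Each group has libraries on both sides of the order. MS replicate 1, Blebb. replicate 3 and CTL replicate 3 come first, and CTL replicate 1 and Blebb. replicates 2 and 1 come last.

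Correlations between the 10 genes over the 9 libraries were uneven. Of the 45 pairs of the 10 genes, 14 had a Pearson's r above 0.8, with a median of 0.65 over all pairs. The closest pairs were Stk3 with Mob1b (r = 0.97), Lats1 with Mob1a (r = 0.97) and Lats1 with Mob1b (r = 0.95). Stk4 stood at r = 0.80 with Mob1a and 0.81 with Amotl1, but at 0.45 with Stk3 and 0.34 with Sav1. The only values below 0 were those of Vgll4 with Stk4 (r = -0.25) and with Amotl1 (r = -0.18). These values describe libraries that share the GC trend. Among all genes tested, those closest in pattern were Rfx7 to Lats1 (r = 0.995), Tubgcp5 to Stk3 (r = 0.997) and Cep170 to Mob1b (r = 0.993). The gene closest to Sav1 was Myh9 (r = 0.986), which encodes the heavy chain of non-muscle myosin IIA, and that closest to Stk4 was Pik3cb (r = 0.995). Pabpc1 was closest to Lats2 (r = 0.97), Hnrnpul1 to Amotl1 (r = 0.96), Rbfox2 to Amotl2 (r = 0.97) and Rtl10 to Vgll4 (r = 0.98). Each of these is the highest r among all genes tested, over only 9 libraries, so a high value alone does not link the genes of a pair.

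The rest of the pathway was described from 5 lists of 72 genes, of which 71 were found by symbol and 61 were tested. No gene of these lists passed the threshold in any comparison (0 at an adjusted p under 0.05 and 0 at an unadjusted p under 0.05, limma), where 0.158%, 1.25% and 0.089% of all genes tested had an unadjusted p under 0.05 in MS against CTL, Blebb. against MS and Blebb. against CTL. Without Blebb. replicate 3, Zyx, Map4k5, Strn4, Stk38l and Tead2 had an unadjusted p under 0.05 in Blebb. against MS and Zyx also in Blebb. against CTL, and in other alternatives Wwc1, Rassf1, Ywhaq, Cttnbp2nl and Wwtr1 did, with no adjusted p under 0.450 (limma). Among upstream activators of the kinases, 20 of 25 genes were tested, and the median of their log2 fold changes was -0.027 for MS against CTL (9 higher, 11 lower) and -0.13 for Blebb. against MS (7 higher, 13 lower). In MS against CTL this became 13 higher and 7 lower without MS replicate 2 (median 0.10) and 4 higher and 16 lower without CTL replicate 1 (median -0.053), and in Blebb. against MS 10 and 10 without MS replicate 3 (median -0.011). Nf2, the gene of the membrane-linked activator merlin, had the highest mean, at 40.7 FPKM. Map4k5, a kinase of a family that can phosphorylate LATS in place of MST, had the largest differences, at 0.35 (standard error 0.41) and -0.63 (standard error 0.41). Its libraries ran from 3.73 to 9.40 FPKM in CTL, from 5.86 to 11.5 FPKM in MS and from 2.76 to 9.13 FPKM in Blebb., so all groups overlapped. Rap2a, a small GTPase upstream of the kinases, had the largest difference in Blebb. against CTL, at -0.34 (standard error 0.29).

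The STRIPAK phosphatase complex, which removes the activating phosphate from MST kinases, had 16 of 18 genes tested, with medians of 0.050 and -0.12 in the same comparisons. The median in MS against CTL was -0.080 without CTL replicate 1 (2 higher, 14 lower), and that in Blebb. against MS was -0.0011 on removal of the GC trend (8 higher, 8 lower) and -0.00064 without MS replicate 1. Its scaffold subunit Ppp2r1a was at 143 FPKM on average, and Strn3 had the largest differences, at 0.46 (standard error 0.59) and -0.71 (standard error 0.59). In Blebb. against CTL it was Slmap, the subunit that binds MST kinases, at -0.28 (standard error 0.56). Of the LIM proteins of the Ajuba and zyxin families, several of which bind and inhibit LATS kinases, 4 of 5 genes were tested. All 4 lay below 0 in MS against CTL (median -0.14) and above 0 in Blebb. against MS (median 0.23), and with the GC trend removed 2 of 4 lay below 0 in MS against CTL (median -0.035) and 4 of 4 above 0 in Blebb. against MS (median 0.098). The gene left out was Lpp, at a mean of 0.575 FPKM. With no minimum, 1 gene was higher and 4 lower in MS against CTL, and 4 were higher and 1 lower in Blebb. against MS. These comparisons share the MS libraries, and no gene passed in either. Zyx had the highest mean, at 53.2 FPKM, and was at 0.16 (standard error 0.15) in Blebb. against CTL. Ajuba was at -0.19 (standard error 0.18) in MS against CTL and Wtip at 0.28 (standard error 0.16) in Blebb. against MS.

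Of the other proteins that restrain YAP, 14 of 15 genes were tested, with medians of 0.043 and -0.12. These were 0.0027 and -0.033 with the GC trend removed, and -0.060 in MS against CTL without CTL replicate 1 and -0.014 in Blebb. against MS without Blebb. replicate 2. Ywhae, one of the adaptors that hold phosphorylated YAP in the cytoplasm, had the highest mean, at 231 FPKM, and its relative Ywhaz the largest difference in MS against CTL, at 0.25 (standard error 0.47). Stk38l, a kinase related to LATS, was at -0.31 (standard error 0.20) in Blebb. against MS and -0.22 in Blebb. against CTL. Amot, the third angiomotin gene, was under the minimum, with a mean of 0.762 FPKM, so that Amotl1 and Amotl2 carried most of the family's transcripts. Of the effectors and TEAD cofactors, 7 of 9 genes were tested, with medians of -0.041 and -0.047. The median in MS against CTL was 0.10 without CTL replicate 3, and that in Blebb. against MS was 0.053 on removal of the GC trend and was -0.20 if Blebb. replicate 3 was left out. Tead2 had the highest mean, at 45.5 FPKM, and was at -0.13 (standard error 0.15) in MS against CTL. Vgll3 was at -0.32 (standard error 0.55) in Blebb. against MS and Tead1 at -0.35 (standard error 0.41) in Blebb. against CTL. Vgll1 and Vgll2 were listed at 0 in all 9 libraries, and Vgll4 was the most abundant gene of its family.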

How the data were processed

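RNA of 9 libraries was extracted with TRIzol, and the authors deposited a single FPKM value per gene in each library. In CTL replicate 1 a sample name heads the value column, which was taken as FPKM too. The processing notes name the builds GRCm38 and mm10, and the aligner, the counting program, the annotation and any filter are not given in the sources used here. Column sums lay between 439939 and 484093 FPKM, and 0 pairs of libraries held identical values.

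The fit used log2(FPKM + 1), where 1 FPKM is the pseudocount, for the 10109 genes whose mean reached 1 FPKM. It was made in limma 3.58.1 under R 4.3.3 on all 3 groups, with the trend option of its moderation step. The test is two-sided, p-values were adjusted by Benjamini-Hochberg over these genes, and the threshold was 0.05. The fit was tested on simulated data. Their noise was independent between genes, whereas the real libraries share the GC trend, so that test does not show how the fit behaves on them. Paralog ratios and correlations were tested by exact permutation in Python 3.11.15. GC content came from the longest GENCODE M21 transcript (95.6% of genes tested), and its trend was removed from each library by loess with a span of 0.5. Gene positions are those of GENCODE M21 on GRCm38, and promoter sequences are from RefSeq.

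All 10 genes are named. From each list of other pathway genes, any that passed the test, the gene with the highest mean and that with the largest difference in each comparison are named. The gene closest in pattern to Mob1a is not reported here. The genes, lists and tests were chosen with earlier results of these data known. Same-numbered libraries deviated together (r above 0.1) in 2 of 9 pairs, so the numbers were not used as pairs in the comparisons. The alternatives tried were another pseudocount (0.1), another minimum (none, or 5 FPKM), other scalings (median-of-ratios factors, quantile normalization, GC trend removed), other fits (without the trend option, with each pair of groups alone, with a replicate block) and libraries left out. The list medians under these alternatives were added after the data had been seen. Plots were drawn with matplotlib 3.10.9.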

Additional observations from a re-analysis of the deposited data

How the results depend on the processing

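The number of the 10 genes that passed the test was 0 under every alternative run, and the side of 0 was kept by 276 of 291 fold changes under alternatives other than single libraries left out. This count overstates the stability. Another minimum, no trend option, each pair of groups alone and the replicate block leave the fold changes as they were. Those fold changes could not change sign. With the replicate block, which the numbers do not support as a pairing, 0 of the 10 genes passed the test in each comparison, and all genes with an unadjusted p under 0.05 numbered 14, 119 and 10 (MS against CTL, Blebb. against MS and Blebb. against CTL), as against 16, 126 and 9 without the block. These counts were 183, 382 and 183 without a minimum, 12, 62 and 17 with each pair of groups fitted alone, and 60, 104 and 12 without CTL replicate 1 and Blebb. replicate 2. They ran from 7 to 115, from 34 to 934 and from 7 to 94 with single libraries left out, and 1 gene, none of the 10, had an adjusted p under 0.05 (limma) without MS replicate 2, in both comparisons with MS. For MS against CTL the highest count (115) also came from leaving out that library, and for the comparisons with Blebb. the highest counts (934 and 94) came from leaving out Blebb. replicate 3. Removal of the GC trend turned the sign in MS against CTL for Vgll4 (0.042), Lats1 (-0.044) and Sav1 (-0.21), in Blebb. against MS for Vgll4 (-0.012) and in Blebb. against CTL for Mob1b (0.0085). Without CTL replicate 1 and Blebb. replicate 2, it was turned in MS against CTL for Lats1 (-0.20), Stk3 (-0.083), Mob1a (-0.052) and Sav1 (-0.18), in Blebb. against MS for Lats2 (0.099) and Amotl1 (0.048), and in Blebb. against CTL for Vgll4 (-0.085), Amotl2 (-0.017) and Sav1 (-0.086). Quantile normalization turned Lats2 in Blebb. against MS (0.032). With single libraries left out, 35 of 270 fold changes of the 10 genes changed sign. The 270 include runs that left out a library of the group outside the comparison, which could not change the fold change. In MS against CTL, log2 fold changes without single libraries ran from -0.26 to 0.10 for Vgll4, -0.21 to 0.069 for Lats2, -0.20 to 0.33 for Lats1, -0.083 to 0.67 for Stk3, -0.069 to 0.25 for Stk4, -0.052 to 0.40 for Mob1a, -0.26 to 0.035 for Amotl1, -0.37 to 0.070 for Amotl2 and -0.18 to 0.15 for Sav1, and log2 ratios from -0.15 to 0.69 for Stk3/Stk4 and -0.18 to 0.26 for Amotl1/Amotl2. In Blebb. against MS, log2 fold changes without single libraries ran from -0.037 to 0.19 for Vgll4, -0.23 to 0.099 for Lats2, -0.15 to 0.13 for Amotl1 and -0.086 to 0.099 for Sav1, and log2 ratios from -0.71 to 0.12 for Stk3/Stk4 and -0.058 to 0.16 for Mob1a/Mob1b. In Blebb. against CTL, log2 fold changes without single libraries ran from -0.15 to 0.20 for Vgll4, -0.30 to 0.033 for Lats2, -0.68 to 0.14 for Stk3, -0.39 to 0.047 for Mob1b, -0.14 to 0.30 for Amotl2 and -0.18 to 0.16 for Sav1, and log2 ratios from -0.25 to 0.043 for Lats1/Lats2 and -0.46 to 0.27 for Stk3/Stk4. None of these values came from a difference that passed the test, and the cause of the changes of sign was not tested. Lats1, Stk3 and Mob1b were below the minimum of 5 FPKM and have no value under it. The depth of the libraries is unknown, and 3 libraries in each group limit the precision, as the intervals of Stk3 show.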
